A study of Mus musculus with 2 samples.

Results

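Mitochondrial ribosomal proteins were followed through the probes whose single annotated symbol is Mrpl or Mrps plus digits, which mark the large and the small subunit of the mitochondrial ribosome. The rule found 85 of the 36227 probes on the array, 52 for 44 large subunit genes and 33 for 28 small subunit genes, so 72 genes of the 18069 with a symbol of their own. RNA came from whole embryo proper of mice at embryonic day 8.5, in a pool of 42 wild-type embryos and a litter-matched pool of 45 mDom-/- embryos, homozygous for a mutation of mDom (p400, present symbol Ep400), which encodes the ATPase of the TIP60/p400 chromatin-remodelling complex. Each pool was hybridised to 1 array, a 1-colour CodeLink bioarray with a biotin-UTP label. The labels name neither the mutant allele nor the strain or sex of the embryos. With 1 array per pool there is no spread between replicates, so no difference below has a test, an error or a p-value.

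Mitochondrial ribosomes translate the few proteins encoded by mitochondrial DNA, all of them membrane subunits of the respiratory chain and the ATP synthase. All of their proteins are encoded in the nucleus, made in the cytosol and imported. Some descend from bacterial ribosomal proteins and keep the bacterial number, and others carry higher numbers. Many of the latter were added in the mitochondrial lineage, but not all, so the number is no sure sign of origin. Mitochondrial translation is needed for mouse embryos to develop past mid-gestation. The symbol follows history rather than structure in a few cases: the products of Mrps18a and Mrps30 sit in the large subunit, and that of Mrps36 is now counted as part of the 2-oxoglutarate dehydrogenase complex. These 3 genes were kept under their symbols.

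Intensities are in units of the array median, and ratios are log2 of mDom-/- over wild-type. A gene is represented by its brightest probe. Values under a floor of 0.541 array medians were raised to it, and genes above it on either array were compared, 13136 in all. All 72 mitochondrial ribosomal genes were above the floor on both arrays. Of the 85 probes, 81 were above it on both arrays, 1 (a second probe of Mrpl3) on the mDom-/- array only, and 3 (2 further probes of Mrpl17 and a second of Mrpl47) on neither. Brightness reflects the probe as well as the transcript, so it served here to find genes measured with like signal and not to rank genes by expression.

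Markers of the embryo proper were present in both pools. Of 13 such genes, 11 were compared, with a median log2 ratio of 0.08 and a summed intensity of 485.6 in wild-type and 498.9 in mDom-/-, while Sox2 and Shh were below the floor on both arrays. The brightest was the heart light chain gene Myl7 (354.4 in wild-type and 374.5 in mDom-/-), which made up most of both sums, so they say little of the other genes. The highest ratio was that of the endoderm gene Foxa2 (2.14 and 2.75). The neural genes Zic1 (11.3 and 3.39, 3.33-fold lower) and En2 (4.66 and 1.61, 2.90-fold lower) had the lowest ratios, followed by Pax6 (19.9 and 15.3). Not all neural genes read lower: Six3 read 11.6 and 12.8, and Hoxb1 39.0 and 45.3. Of the 11 compared genes, 7 lay above 0 and 4 below. Both Ep400 probes were below the floor on both arrays and checked nothing.

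Markers of other tissues also differed between the pools. Of 12 genes of visceral endoderm and yolk sac 11 were compared, 6 above 0 and 5 below, with a median log2 ratio of 0.24 and sums of 720.3 and 920.6. They ran from the endocytic receptor genes Lrp2 (1.67-fold lower) and Cubn (1.53-fold lower) to Ttr, Apoa4 and Apoc2 (1.51-fold, 1.73-fold and 1.89-fold higher), and Amn was below the floor on both arrays. The larger mDom-/- sum came mostly from 2 bright probes, those of Ttr (166.6 and 251.2) and Apoc2 (128.0 and 242.4). With loess on brightness their median was 0.13. Of 8 trophoblast and decidua genes, 4 were compared, all above 0, from Prl8a2 (1.11-fold higher) to Ascl2 (1.41-fold higher), with a median of 0.26 and sums of 19.01 and 22.05. Tpbpa was below the floor on both arrays (0.421 and 0.0847). With a lower floor (the 25th percentile of the array) or none, 5 were compared, 1 of them below 0, and the median was 0.16. Of 10 red cell genes 7 were compared, 6 of them below 0, with sums of 351.6 and 41.1. Their lowest were the embryonic globin genes Hbb-y (133.8 and 5.12) and Hba-x (199.9 and 22.4) and the heme synthesis gene Alas2 (2.22-fold lower), and their highest was Epb42 (1.03 and 1.41). The globin genes made up most of both sums. Rhag, though below 0, was nearly even (9.57 and 9.49). Gata1 and Slc4a1 were above the floor in wild-type only, and Klf1 on neither array. The red cell median was -0.42, but -1.23 with the lower floor, -1.15 with none and -2.15 over the 4 genes left by a higher floor (the 60th percentile). The part of tissue makeup in the ratios below was not tested, and fewer cells of a type cannot be told apart from less RNA per cell in such pools.

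Mitochondrial ribosomal protein genes read nearly the same in both pools. No member passed 2-fold, against 0.845% of all compared genes that were that much higher in mDom-/- and 0.929% that were that much lower. At a smaller rule, in which the higher array exceeds the lower one by at least 25%, 0 of 72 members were higher in mDom-/-, against 12.4% of all compared genes, and 2 of 72 were lower, against 14.1%. Bright genes pass these rules less often. In the brightest 10%, with 37 members, 7.99% of other genes were higher by the 25% rule and 2.59% lower. Between the 65th and the 90th percentile, with 26 members, 6.84% were higher and 9.05% lower. Past 2-fold, 1 of the 1276 other genes in the brightest 10% was higher and 3 were lower. The members lay between -0.44 (Mrpl51) and 0.31 (Mrps25), with a median log2 ratio of 0.07, beside a median of -0.004 over all compared genes. Above 0 lay 47 members and below 0 lay 25. Pairs of probes of the same gene, the only repeated measurement on these arrays, gave an SD of a log2 ratio of 0.25 over 1301 genes with 2 probes, and 60 of the 72 members lay within that distance of 0, as did 63.7% of all compared genes and 76.8% of other genes in the brightest 35%. That SD was 0.22 over the 741 of these genes in the brightest 35% and 0.29 over the other 560.

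**Figure D1:**
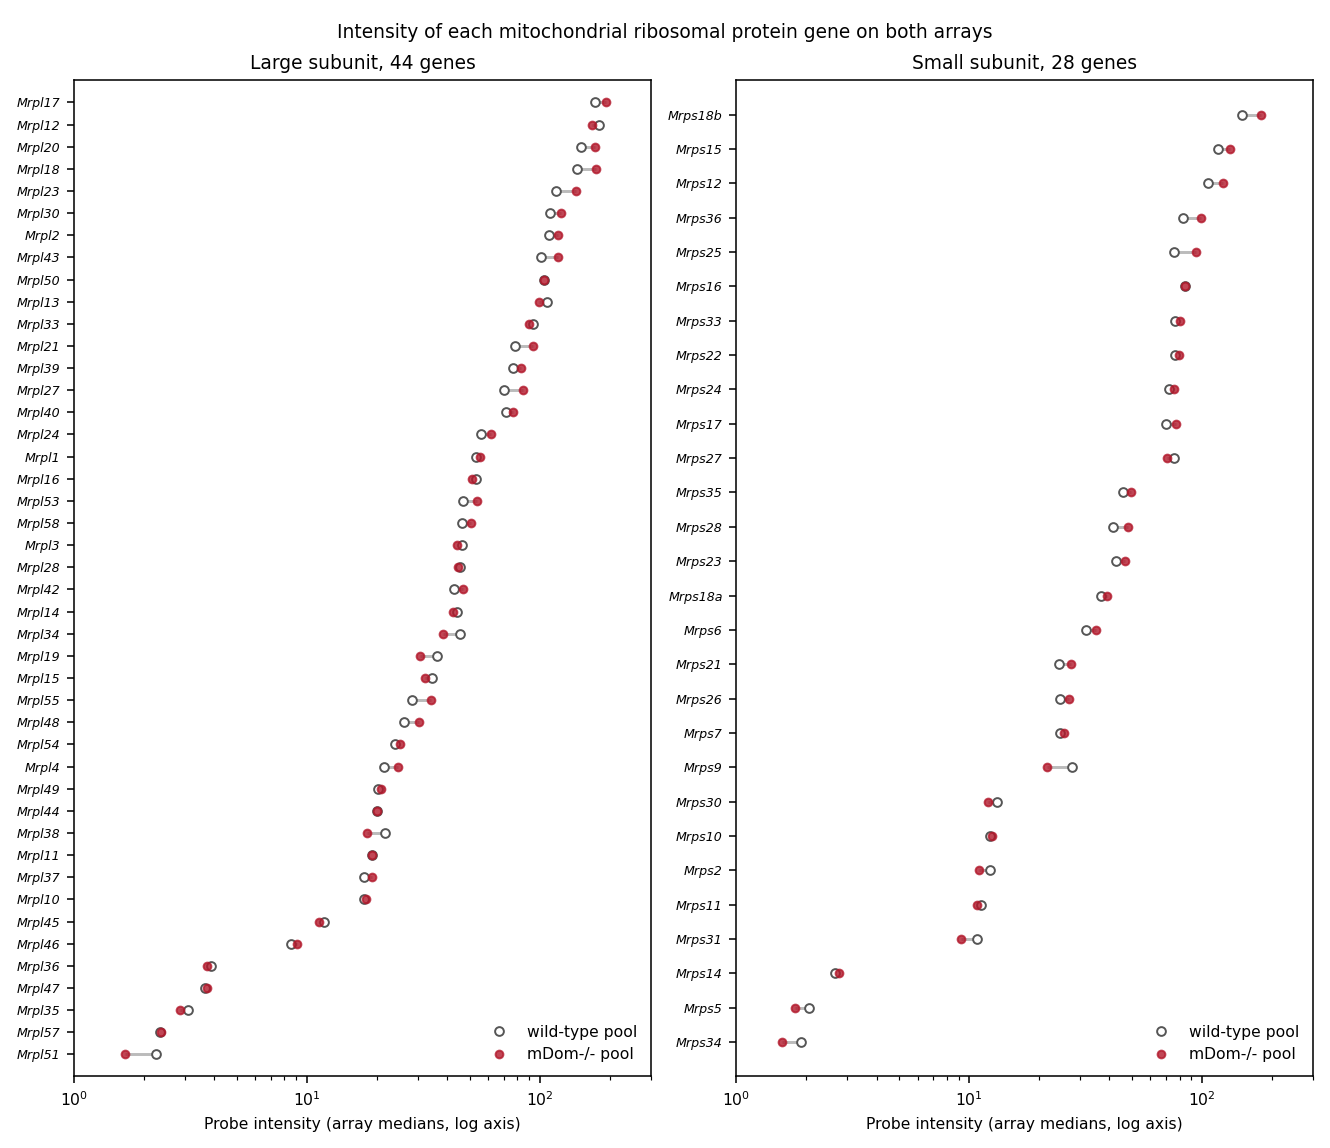
Intensity of the probe that represents each gene, in array medians on a log axis, for the wild-type pool (open circles) and the mDom-/- pool (filled circles), large subunit left and small subunit right, ordered by brightness. Each circle is 1 array. The pairs nearly coincide for most genes, and the widest gaps are those of Mrpl51 and Mrps9, which read lower in the mDom-/- pool.

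The large and the small subunit did not stand apart from each other. The median log2 ratio was 0.06 over the 44 large subunit genes, of which 28 lay above 0, and 0.07 over the 28 small subunit genes, of which 19 lay above 0. The difference of the medians, large minus small, was -0.02, against an interquartile range of 0.22 within the large and 0.21 within the small subunit. Placing Mrps18a and Mrps30 in the large subunit left both medians as they were, since each subunit gave or took 1 gene on either side of its median. Within the large subunit, the 25 genes with bacterial numbers had a median of 0.01 with 13 above 0, and the 19 with higher numbers a median of 0.08 with 15 above 0. In the small subunit the medians were 0.06 over 15 genes and 0.08 over 13, with 10 and 9 genes above 0.

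**Figure D2:**
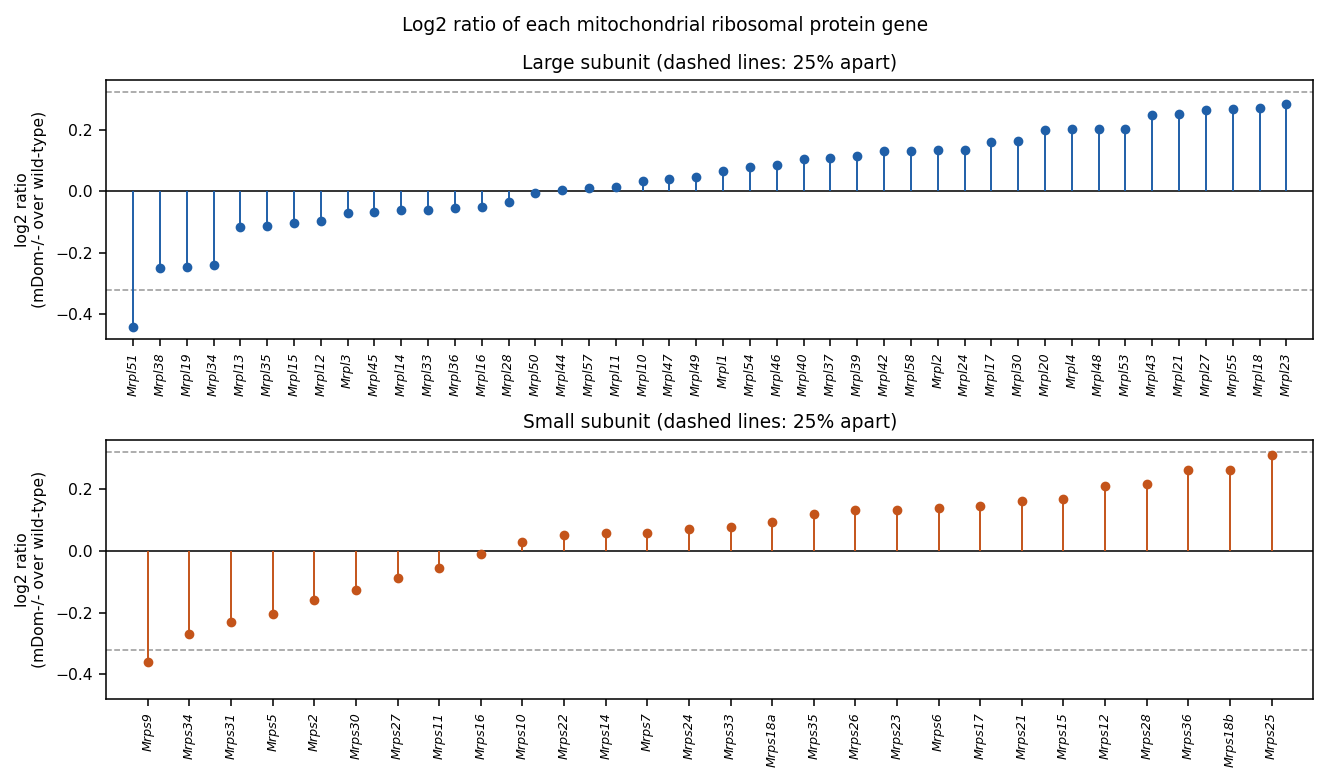
Log2 ratio of mDom-/- over wild-type for each gene, ordered within the large (top) and the small subunit (bottom), 1 array per pool. The dashed lines mark arrays 25% apart, which of the 72 genes Mrpl51 and Mrps9 pass, both downwards.

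Large subunit genes for proteins around the peptide exit tunnel and the catalytic core read on both sides of 0. Mrpl23, a protein at the rim of the exit tunnel, had the highest ratio of the subunit, reading 117.3 in wild-type and 142.8 in mDom-/- (1.22-fold higher). Mrpl24, also beside the tunnel, read 56.1 and 61.6. Mrpl45, added in mitochondria, which ties the ribosome to the inner membrane where new proteins are inserted, read 11.8 and 11.3. Mrpl2 and Mrpl3, which bind the ribosomal RNA of the core, read 109.6 and 120.2, and 46.2 and 44.0. Mrpl4, another tunnel protein, read 21.5 and 24.7, 1.15-fold higher.

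Genes of the stalk and of the central protuberance showed the same mixture. Mrpl12, whose product forms the flexible stalk that recruits translation factors and which also binds the mitochondrial RNA polymerase, had the brightest wild-type probe of the subunit, at 178.8, and read 167.2 in mDom-/-. Its partners at the stalk base, Mrpl10 and Mrpl11, read 17.57 and 17.98, and 18.9 and 19.1. Mrpl18, a protein of the central protuberance, read 144.5 and 174.3 (1.21-fold higher). Mrpl27, which lies near the peptidyl-transfer RNA site, read 70.2 and 84.3 (1.20-fold higher). Of the protuberance proteins added in mitochondria, Mrpl38 was among the lowest of the subunit, at 21.6 and 18.2 (1.19-fold lower), while Mrpl40, Mrpl46 and Mrpl48 read 71.4 and 76.9, 8.52 and 9.03, and 26.2 and 30.1. All of these differed by less than 25%.

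At the low end of the large subunit, Mrpl51 read 2.24 in wild-type and 1.65 in mDom-/- (1.36-fold lower), the largest ratio of either sign in the family. It is also among the dimmest, brighter than 31.2% of compared genes. After it came Mrpl38, then Mrpl19, at 36.3 and 30.7, and Mrpl34, at 45.5 and 38.5, bright probes that read 1.19-fold and 1.18-fold lower. Mrpl13, at 107.1 and 98.9, and Mrpl35, at 3.08 and 2.85, completed the lowest 6. At the high end, Mrpl55, at 28.2 and 34.0, Mrpl21, at 78.4 and 93.2, and Mrpl43, at 100.9 and 119.8, lay between 1.19-fold and 1.20-fold higher. Of the brightest probes of the subunit, those of Mrpl17 (172.5 and 192.8) and Mrpl20 (150.0 and 172.2) read higher in mDom-/-, unlike that of Mrpl12. Of the enzyme-like members, Mrpl44, with a ribonuclease III fold, read 19.9 on both arrays. Mrpl39, related to a threonyl-tRNA synthetase, read 76.8 and 83.3 (1.08-fold higher). The brightest probe of Mrpl58, which can release stalled peptides, read 46.1 and 50.5 (1.09-fold higher), while its dim second probe read lower in mDom-/-.

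In the small subunit the decoding and head proteins lay at both ends. Mrps9, a protein of the head, read 27.6 in wild-type and 21.5 in mDom-/- (1.28-fold lower), the lowest ratio of the subunit. Of the 2 members past the 25% rule it is the bright one, with a probe brighter than 81.9% of compared genes. Its neighbours in the head, Mrps7, Mrps10 and Mrps14, read 24.5 and 25.5, 12.3 and 12.5, and 2.65 and 2.75. Mrps12, the protein of the decoding centre, read 106.0 and 122.6 (1.16-fold higher). Mrps5 and Mrps2, both with bacterial counterparts, read 2.06 and 1.79, and 12.28 and 11.01. Mrps34 and Mrps31, both added in mitochondria, read 1.90 and 1.58, and 10.8 and 9.23. These were the lowest after Mrps9, together with Mrps30 (13.12 and 12.02).

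At the high end, Mrps25 read 76.0 and 94.4 (1.24-fold higher), the highest ratio of the family. Mrps18b, related to the bacterial S18 protein, read 149.1 and 179.0 (1.20-fold higher), while Mrps18a, its paralogue in the large subunit, read 36.7 and 39.1. Mrps36 read 82.8 and 99.4 (1.20-fold higher). Mrps28, at 41.5 and 48.3, and Mrps15, at 117.6 and 132.1, completed the 6 highest with Mrps12. Mrps22, Mrps24 and Mrps33 lay between 0.05 and 0.08 on the log2 scale, and Mrps16 at -0.01.

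The small upward shift of the family was seen mainly in its bright probes. These genes are bright on this array: 64 of 72 were above the median brightness of compared genes and 37 were in the brightest 10%. Other genes of that brightness also read slightly higher in mDom-/-, with a median log2 ratio of 0.06 over 1276 genes, against 0.13 over the 37 members. Of these members 75.7% lay above 0, beside 63.2% of the other genes. Between the 65th and the 90th percentile of brightness, 26 members had a median of 0.02 and 3258 other genes -0.01. Below the 65th percentile, 9 members had a median of -0.06 and 8530 other genes -0.01. These 3 ranges were chosen after the data had been seen.

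Set against the median of other genes in its own bin of brightness (20 bins of equal gene number), the median member lay 0.06 higher, 0.06 both in the large and in the small subunit, with 47 of 72 members above their bin and 25 below. With the mean over a gene's probes in place of the brightest one, the median member lay 0.04 higher. The spread of members was close to that of other genes or narrower: their interquartile range was 0.16 in the brightest 10%, where other genes had 0.24, and 0.23 in the middle range, where other genes had 0.27. Fewer of them passed the 25% rule in either direction, 0 of 37 against 10.6% in the brightest range and 1 of 26 against 15.9% in the middle range. With 1 array per pool none of these differences could be tested.

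**Figure D3:**
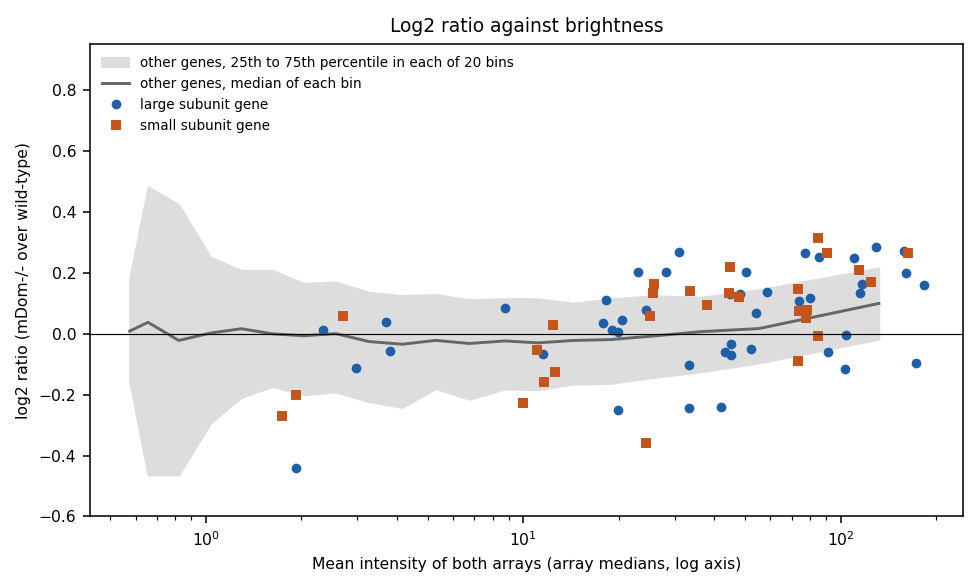
Log2 ratio against mean intensity (array medians, log axis) for large subunit genes (circles) and small subunit genes (squares), over the median (line) and the 25th to 75th percentile (grey band) of other compared genes in 20 bins of brightness. The line rises to 0.10 in the brightest bin, and most members of that bin lie at or above it.

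Where a gene had several probes, they did not always give the same ratio. Of 8 genes with several probes above the floor on both arrays, the probes of 4 lay on both sides of 0 and those of 3 lay within 0.25 of each other. The probes agreed for Mrps12 (0.21 and 0.13), Mrps33 (0.08 and 0.01) and Mrps30 (-0.13 and -0.24). Those of Mrpl58 differed most: the bright probe read 46.1 and 50.5, the dim one 1.13 and 0.612, 1.85-fold lower in mDom-/-. Mrpl21 had 3 such probes, at 0.25, 0.08 and -0.54, in falling order of brightness, and the dim probes of Mrps14 and Mrpl35 read -0.58 and -0.44. The second probe of Mrps7 read -0.26.

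In all 8 of these genes the brightest probe had the higher ratio, by a median of 0.32 over the dimmest. Over all 1442 genes with several such probes it did so in 56.3%, by a median of 0.04. In 4 members the dimmest probe was under 1.5 array medians, and among the 489 genes of that kind on the array the brightest probe was the higher in 50.1%. Probes that carry a second gene's symbol were left out of the rule. There were 3 of them. They read 27.2 and 20.6 for Mrps6 with Slc5a3, 3.23 and 2.82 for Mrps25 with Nr2c2, and 40.4 and 39.8 for Mrpl32 with Gm6578. The probes of Mrps6 and Mrps25 alone read higher, Mrps6 at 31.8 and 35.1.

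**Figure D4:**
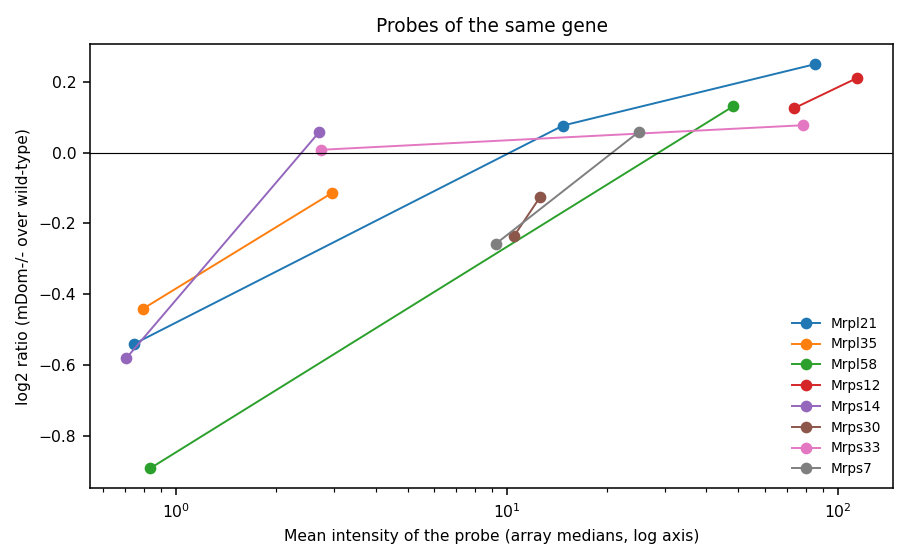
Log2 ratio against mean probe intensity (array medians, log axis) for the 8 genes with several probes above the floor on both arrays, with lines joining the probes of a gene. Every line ends higher at its bright end, and the lowest point is the dim probe of Mrpl58 at -0.89.

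Upstream sequence was examined because genes of this family are known to share binding letters for NRF1, for ETS factors such as GABP and for YY1, all regulators of nuclear genes for mitochondrial proteins. RefSeq windows of GRCm38.p6, from 250 bases before to 50 after a start, were matched by gene ID for 63 of the 72 genes. On either strand, the ETS letters CCGGAAG were in 23 of the 63 genes (36.5%), against 17.2% of the other compared genes with a window and 9.93% of all genes with one. The NRF1 letters GCGCANGCG were in 13 (20.6%), against 13.1% and 7.03%, and the YY1 letters AANATGGCG in 11 (17.5%), against 4.99% and 2.76%. The E-box CACGTG, bound by Myc and its relatives, was in 4 of the 63 (6.35%), against 11.1% and 8.09%. In 0 of the 63 genes did the ETS, NRF1 and YY1 letters share bases. The letters were chosen after the data had been seen, and those of NRF1 and YY1 were shortened by 1 base after a first count.

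The following 30-base windows show these letters, in capitals and written along the strand that carries them, in the members at both ends of the order of ratios, so that high and low members can be compared. The ETS letters are shown for the 2 highest and 2 lowest genes, the NRF1 and YY1 letters for the highest and the lowest, among genes whose whole 30 bases lie inside the RefSeq window.
Mrpl27, ETS, chr11:94653725-94653754, plus strand, 52 bases before the start: gtccgcaagacCCGGAAGtagatctatccc
Mrpl21, ETS, chr19:3283038-3283067, minus strand, 10 bases after the start: ccacagtcccaaCCGGAAGcggaagcagcg
Mrpl34, ETS, chr8:71464878-71464907, plus strand, 34 bases before the start: aactacagctcCCGGAAGgccccgcggcaa
Mrpl51, ETS, chr6:125192099-125192128, plus strand, 87 bases before the start: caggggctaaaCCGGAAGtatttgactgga
Mrps18b, NRF1, chr17:35916645-35916674, plus strand, 220 bases before the start: gtgctcccagtGCGCATGCGtcgggccgtt
Mrps9, NRF1, chr1:42851219-42851248, minus strand, at the start: gcctggagactGCGCAGGCGcagacctccc
Mrpl27, YY1, chr11:94653789-94653818, plus strand, 12 bases after the start: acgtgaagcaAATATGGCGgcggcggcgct
Mrps30, YY1, chr13:118387218-118387247, minus strand, 19 bases after the start: gcggcgggcgAAAATGGCGgcggccaggta
The windows were taken from both ends of the order by design. They therefore include genes that read higher, such as Mrpl27 and Mrps18b, and genes that read lower, such as Mrpl51 and Mrps9. By themselves they do not show whether the letters go with the ratio. The median log2 ratio was 0.13 over the 23 genes with ETS letters and 0.05 over the 40 without, 0.03 over the 13 with NRF1 letters and 0.07 over the 50 without, and 0.07 both over the 11 with YY1 letters and over the 52 without. The ranges overlapped in each case: genes with ETS letters ran from -0.44 to 0.27 and those without from -0.36 to 0.31. A match of letters is a description, not a binding site.

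Some of these genes start back to back with another gene. In the RefSeq windows 21 members had a protein-coding gene that starts within 1000 bases on the other strand and runs the opposite way, which made 20 pairs, 17 of them with both genes compared. Both genes lay on the same side of 0 in 8 of the 17. No share over all genes stands beside these counts, so they do not set the family apart. Mrpl46 and Mrps11, whose starts lie 42 bases apart, had log2 ratios of 0.08 and -0.06. Mrpl43 read higher in mDom-/-, at 0.25, while its partner Twnk, the mitochondrial DNA helicase gene, read 4.45 and 3.84. Mrpl18 was at 0.27 and its partner Tcp1, a subunit gene of the cytosolic chaperonin, at 39.1 and 32.8. Mrpl49 was at 0.05 and Fau, which encodes a cytosolic ribosomal protein, read 191.6 and 269.9. The lowest partner was Cyb5rl, beside Mrpl37 (2.71 and 1.77, 1.53-fold lower), and the highest Zfp661, beside Mrps5, which was below the floor in wild-type and at 0.801 in mDom-/-. The partner of Mrps12, the mitochondrial seryl-tRNA synthetase gene Sars2, was below the floor on both arrays.

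Other genes of mitochondrial translation gave medians on both sides of 0. Of 4 compared mitochondrial ribosomal genes with other symbols, Ptcd3 was lowest (14.2 in wild-type and 11.2 in mDom-/-) and Chchd1 highest (87.8 and 93.5). Of these, 1 (Ptcd3) was lower by the 25% rule, beside 14.1% of all compared genes, and 0 higher, beside 12.4%. The 12 compared translation factor genes had a median of -0.12, with 8 below 0. By the 25% rule 3 were lower, beside 14.1% of all compared genes, and 0 higher, beside 12.4%. With the higher floor, which left 10 of them, the median was -0.03 and 1 was lower. Their lowest was Mtif3, an initiation factor gene (1.503 and 1.09), and their highest Mtrf1, related to release factors (9.61 and 10.5), while Tufm, the elongation factor gene, read 97.3 and 98.3. The 19 compared tRNA synthetase and amidation genes had a median of 0.06 (0.03 to 0.08 over the other settings). They ran from Gatc (3.45 and 1.89, 1.83-fold lower) to Wars2 (0.970 and 1.32). Among them 3 were lower by the 25% rule, beside 14.1% of all compared genes, and 1 higher, beside 12.4%.

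Of 23 compared ribosome assembly genes 10 lay above 0, with a median of -0.01 that ran from -0.03 to 0.01 over the other settings tried. Fastkd2, an RNA-binding assembly factor gene, read 1.19 and 0.564 (2.11-fold lower), with the mDom-/- value just above the floor. Dhx30, a helicase gene, read 6.49 and 4.0 (1.62-fold lower), and Mpv17l2 read 2.85 and 4.77 (1.67-fold higher). The 19 compared genes of mitochondrial DNA expression had a median of -0.10, with 14 below 0. By the 25% rule 5 were lower (14.1% over all compared genes) and 0 higher (12.4%). Their median ran from -0.17 with the mean over probes to -0.07 over the other settings, and was -0.15 with loess. Trmt10c, a subunit of mitochondrial ribonuclease P, read 5.10 and 2.78 (1.83-fold lower) and Lrpprc, which stabilises mitochondrial messenger RNAs, 6.10 and 4.48. Tfam, which packages mitochondrial DNA, was the highest of them, at 66.5 and 81.3.

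Among 10 compared regulators of mitochondrial biogenesis, the median was 0.02, and from -0.04 to 0.04 over the other settings. The lowest was Mycn (5.09 and 3.81), followed by Myc (7.63 and 5.82), and the highest was Ppargc1b (2.23 and 3.20). Nrf1 read 1.22 and 1.52, Gabpa 2.85 and 2.65, and Yy1 14.3 and 14.5. The 26 genes chosen to follow other mitochondrial proteins had a median of 0.02, which turned to -0.07 with quantile normalization and -0.08 with loess, from Hspd1, the matrix chaperonin gene (93.1 and 69.5), to Tomm20, an import receptor gene (228.2 and 284.5).

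Compared with the families most like it, the mitochondrial ribosome had the smallest median when each array was scaled to its median. It was 0.07 for its 72 genes, 0.16 for 30 complex I subunit genes, of which 26 lay above 0, and 0.25 for 59 cytosolic ribosomal protein genes, of which 56 lay above 0. By the 25% rule 0 of 72, 5 of 30 and 18 of 59 genes were higher, against 12.4% of all compared genes. With loess on brightness these counts were 0, 2 and 4, and with quantile normalization 0, 3 and 4. The share of all compared genes past the rule was not counted at these 2 scalings, so these counts have no background beside them. Complex I ran from Ndufs3 (33.4 and 26.5) to Ndufb2 (22.3 and 31.4), and the cytosolic family from Rps15a (4.31 and 4.07) to Rpl35a (408.6 and 647.3). Probes of the cytosolic family were far brighter, with a median wild-type intensity of 588.5 against 43.5. Against the median of other genes in the same bin of brightness, the medians were 0.06, 0.07 and 0.16. The brightest bin had a middle intensity of 131.8 array medians, so the cytosolic genes were mostly set against dimmer genes. Their 0.16 is therefore not a value at like brightness. The order of the families depended on the scaling. With loess on brightness the medians were 0.04, 0.03 and 0.03, with 33 of 59 cytosolic genes above 0. With quantile normalization they were 0.05, 0.07 and 0.02. The differences between the families were not tested.

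**Figure D5:**
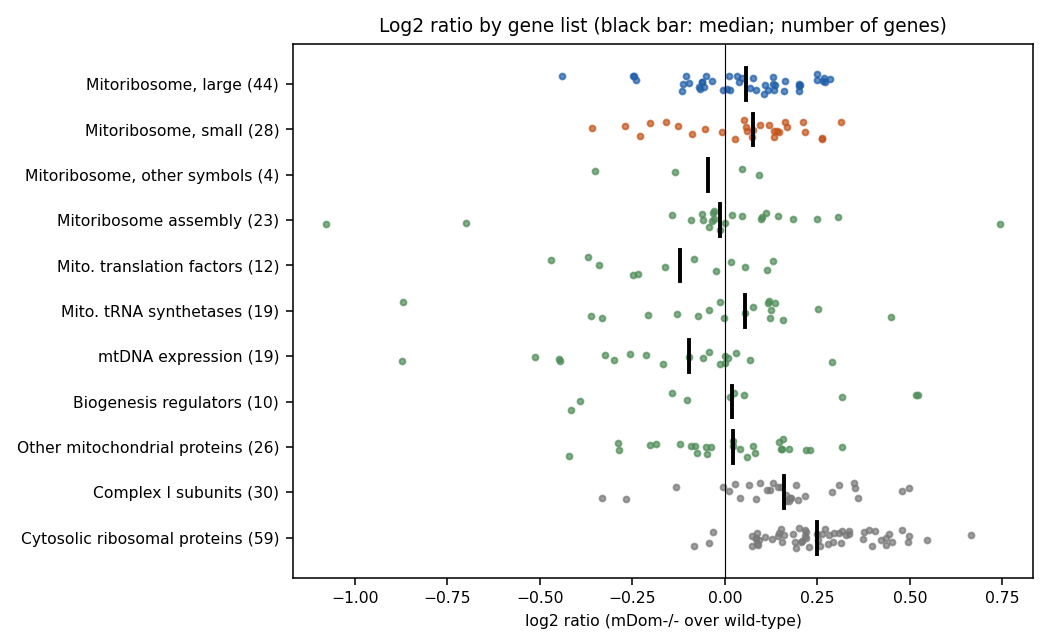
Log2 ratio of mDom-/- over wild-type for each compared gene of the mitochondrial ribosome by subunit, of other mitochondrial gene lists, of complex I and of the cytosolic ribosome, with a bar at each median and the number of genes in brackets. Both mitochondrial ribosome subunits lie within -0.44 to 0.31, and the cytosolic family is shifted furthest to the right, with a median of 0.25 at this scaling and 0.03 with loess on brightness.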

How the data were processed

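Per the labels, a CodeLink System Software analysis of each array image gave the deposited intensities, which are linear. Neither its version nor its background correction and scaling is named there. Medians were 1.05 in both columns, so values were already scaled, but on which probes is unknown. Cells of -9999 were treated as missing (105 wild-type and 106 mDom-/- probes). Each array was divided by its median, raised to the higher of the 40th percentiles and put on the log2 scale. Of the probes, 21615 had 1 symbol in the platform annotation, 681 several and 13931 none listed. All 72 member genes matched RefSeq by Entrez identifier. Members, lists and rules were chosen with earlier results of these data known. Every member could be named. Of other lists, the highest, the lowest and genes at least 1.5-fold apart were named, and other names were chosen after their values were seen. Scripts (Python 3.11.15, pandas 2.3.3, statsmodels 0.14.6) were tested on simulated data.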

Additional observations from a re-analysis of the deposited data

How the results depend on the processing

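In all, 10 alternatives were tried: the values as deposited, the 75th percentile for scaling, loess on brightness, quantile normalization, a lower floor (25th percentile), a higher floor (60th) or no floor, the mean over probes, genes above the floor on both arrays, and Mrps18a and Mrps30 in the large subunit. The median over all members stayed above 0 in each, from 0.04 with loess (0.0394) to 0.09 at the 75th percentile. That scaling put 1 member higher by the 25% rule. With the mean over probes 3 members were lower by it in place of 2, the median was 0.04 (0.0438) and the difference from genes of like brightness 0.04 (0.0357). The share of all compared genes past the 25% rule was counted only for the processing described above, not for the alternatives. In no setting was a member 2-fold apart, and the small subunit's median stayed above the large one's. Of the 72 members, 62 kept their side of 0 throughout, 39 above and 23 below. With the mean over probes, Mrpl58 had a log2 ratio of -0.38, Mrps14 -0.26 and Mrpl21 -0.07. Adding the 4 genes of other symbols, an alternative chosen after seeing the data, gave a median of 0.06. No paired analysis was possible because each group has 1 array. Their number limits the precision, and differences of a gene under the SD of 0.25 between probes cannot be told from probe error. That SD comes from probes on the same 2 arrays and holds no variation between pools or hybridisations. A difference above it is therefore not shown to exceed error, and it is not the error of a median over genes.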
